A study of Mus musculus with 9 samples.

Results

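The genes described here are 9 transcription factors and regulators that carry the daily clock's signal to its target genes or adjust the clock itself: Dbp, Tef, Hlf, Nfil3, Bhlhe40, Bhlhe41, Rora, Rorb and Ciart. They were chosen by their signal in this same genotype comparison, which was known when they were proposed, and every probe set of the array annotated to 1 of these genes alone was then taken, which gave 24 of 45101 probe sets. Where a gene has several probe sets they are lettered in the order of their identifiers, as in Dbp A and Dbp B. The choroid plexus, the tissue in the brain ventricles that secretes cerebrospinal fluid, was cut out by laser capture from frozen brain tissue of C57BL males, 78 weeks old and fed normal chow. There were 4 arrays of apoE-/- tissue, which lacks apolipoprotein E, a lipid carrier, and 5 of wild-type tissue, and both groups share sex, strain, age and diet. The sources used here give neither the hour of collection nor how many animals each capture came from. P-values therefore measure only the spread between these 9 arrays, some of which may be technical, and the small number of arrays limits how precise any value is. In bulk tissue, fewer cells of a type and less RNA per cell cannot be told apart.

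Nearly every cell holds a clock in which CLOCK and BMAL1, the product of Arntl, switch on genes through a DNA motif called the E-box, and the PER and CRY proteins made from those genes switch it off again. DBP, TEF and HLF are activators of the PAR bZIP family that bind another motif, the D-box, and so pass the rhythm on, while NFIL3 is a repressor of the same sites. BHLHE40 and BHLHE41 (DEC1 and DEC2) and CIART (also called CHRONO) restrain CLOCK and BMAL1, and RORα and RORβ are nuclear receptors that activate Arntl where the REV-ERB proteins of Nr1d1 and Nr1d2 repress it. The choroid plexus keeps a daily rhythm of its own.

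The arrays matched their labels and the tissue. Apoe read 12.2 to 53.8 in the apoE-/- group, called absent on all 4 arrays, and 18252 to 23953.1 in wild-type. All 10 markers of choroid plexus epithelium were measured, with a summed signal of 136899 to 163538 in apoE-/- and 127402 to 154768 in wild-type. Of 9 neuron markers on the array, Rbfox3, Stmn2, Nefm and Tubb3 were called present on no array. Snap25, Syt1 and Nefl were called present on all 9 arrays, Gad1 on 8 and Slc17a7 on 7, so some neuronal RNA was detected. The list summed to 1142 to 1501 in apoE-/- and 1226 to 2113 in wild-type. Oligodendrocyte markers summed highest in wild-type replicate 1 at 8914, against 2070 to 3902 elsewhere. Of these, Mbp, at 701.5 to 6151.2, and Cnp, at 1094.8 to 2236.9, were called present on all 9 arrays. Mog, Mobp and Mag were present on no array. Values are signal intensities on the authors' linear scale, and each probe set also carries the authors' call of present, marginal or absent. The levels of different probe sets cannot be set against each other.

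Of the 24 probe sets, 14 from 6 genes had a present call on 4 or more arrays and entered the genotype comparison. The other 10 included both probe sets of Bhlhe41, all 3 of Rorb and the only one of Ciart. Because this comparison chose the genes, their genotype differences are a description, with no test, and nothing is read from the counts that follow. Of the 14, 1 passed an adjusted p of 0.05 upward, a probe set of Dbp, where 0.67% of all 21478 tested probe sets did, and 0 passed downward, where 1.92% did (limma). That made 1 of 14 in either direction, where 2.59% of all passed, and 7 of 14 had an unadjusted p under 0.05, where 16.5% of all did. Their median log2 difference was 0.27, against 0.0014 over all tested probe sets. Groups did not overlap for 1 of the 14, a probe set of Hlf that read higher, and 2.72% of all tested probe sets were apart in that direction, 4.17% in the other (0 of 14) and 6.89% in either.

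The PAR bZIP activator Dbp differed most, but on 3 of the 4 apoE-/- arrays. Probe set Dbp A read 2368, 2410.8, 2684 and 486.7 in apoE-/- replicates 1 to 4 and 405.5, 738.5, 439, 510.3 and 711.8 in wild-type replicates 1 to 5, called present on all 9. Probe set Dbp B read 6947.1, 6526.6, 6556.9 and 1241.4 in apoE-/- and 1510.9, 2694, 1031.5, 1059.5 and 1483.5 in wild-type. By both, apoE-/- replicates 1 to 3 lay far above every wild-type array and close to each other, while replicate 4 lay inside the wild-type range. On the normalized log2 scale Dbp A averaged 10.70 ± 1.18 (SD, n = 4) against 9.09 ± 0.40 (SD, n = 5), a log2 difference of 1.61 ± 0.40 (SE) or 3.06-fold. The second probe set gave 1.60 ± 0.43 (SE). Without apoE-/- replicate 4 the differences were 2.20 ± 0.19 and 2.21 ± 0.23 (SE), or 4.60-fold and 4.64-fold. The number of member probe sets passing then became 3 upward and 1 downward, where 1.12% and 2.46% of all tested probe sets did. The 1 downward was Nfil3, which none of the 3 apoE-/- arrays then detected and which met the filter through the other arrays. Leaving out any other array brought the upward number to 0.

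Dbp lies on chromosome 7, as Apoe does, and the other 8 genes lie on other chromosomes. Arntl, Tspan4 and Cebpa, described below, lie on chromosome 7 too. Whether position on that chromosome bears on any of these values was not tested.

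**Figure D1:**
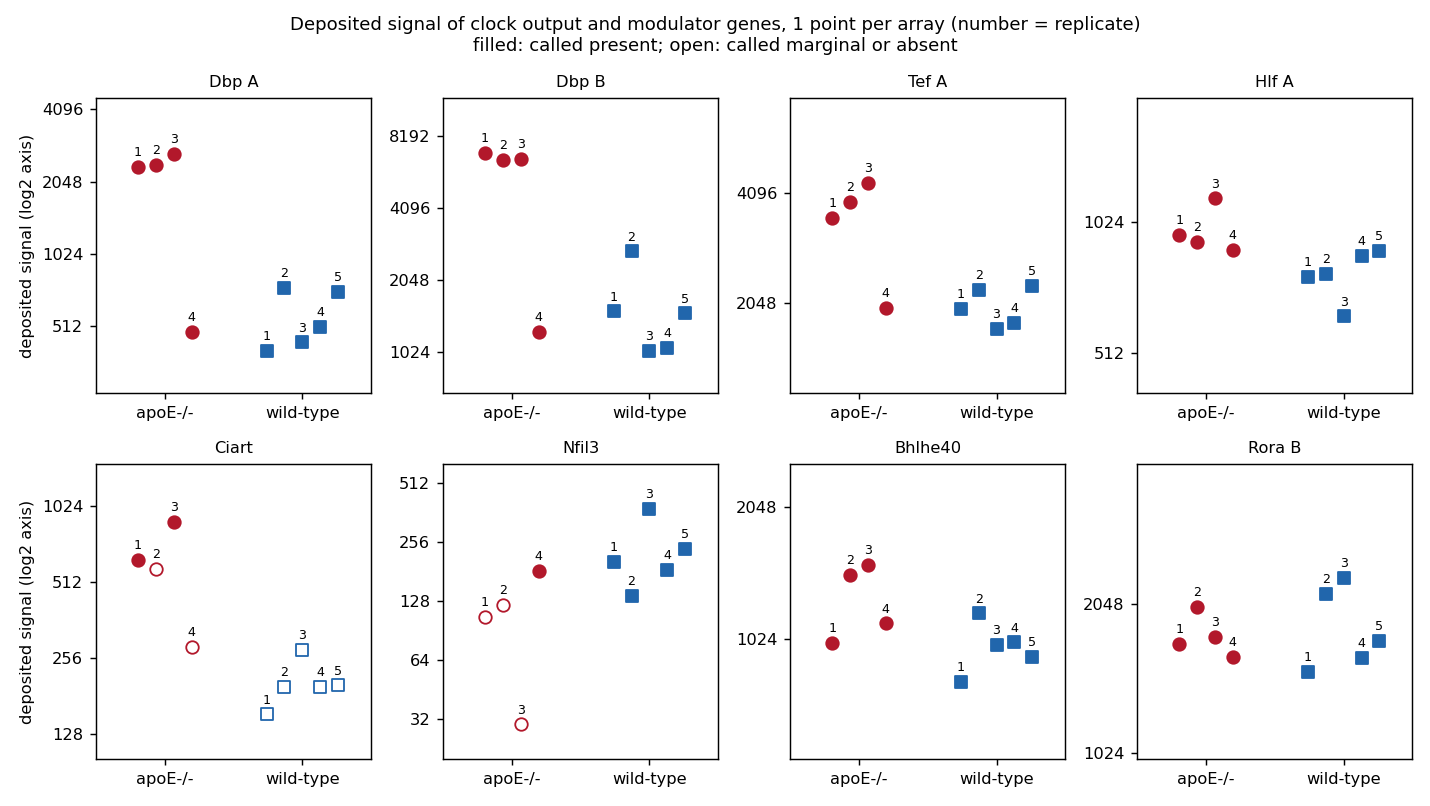
Deposited signal of 8 probe sets on a log2 axis, 1 point per array numbered by replicate, with apoE-/- as red circles and wild-type as blue squares, filled where called present and open where marginal or absent. In the 3 panels of Dbp and Tef, apoE-/- replicates 1 to 3 sit above all 5 wild-type arrays and replicate 4 sits among them.

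Tef, the second PAR bZIP activator, showed the same split of the apoE-/- arrays with a smaller span. Probe set Tef A read 3495.9, 3870.2, 4359.8 and 1983 in apoE-/- and 1970.2, 2221.7, 1743.8, 1810.8 and 2278.3 in wild-type. Again 3 apoE-/- arrays were above all wild-type arrays and replicate 4 was among them. The log2 difference was 0.74 ± 0.19 (SE), or 1.67-fold, and 0.99 ± 0.12 (SE) without apoE-/- replicate 4. Probe set Tef B, a dim one, read 85.4 to 131.1 in apoE-/- and 60.6 to 107.5 in wild-type, with 2 arrays of each group called present and overlapping groups (0.33 ± 0.25, SE). Probe set Tef C read 175.2 to 328.9 in apoE-/- and 57.7 to 217.4 in wild-type, and was called present on none of the 9 arrays, so it has no fold.

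Hlf, the remaining PAR bZIP activator, differed less. Probe set Hlf A read 959.4, 923.5, 1161.3 and 885.7 in apoE-/- and 768.4, 778.5, 621.9, 856.8 and 880.6 in wild-type. The groups did not overlap, but apoE-/- replicate 4 stood just above the highest wild-type array, and the log2 difference was 0.33 ± 0.13 (SE), or 1.26-fold. Probe set Hlf B read 420.9, 347.8, 402.3 and 202 in apoE-/- and 283.9, 286.8, 146.6, 311.7 and 299.5 in wild-type. Here replicates 1 to 3 were above all wild-type arrays and replicate 4 below all but wild-type replicate 3. The log2 difference was 0.33 ± 0.25 (SE), and 0.56 ± 0.23 (SE) without apoE-/- replicate 4.

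Ciart, the repressor of CLOCK and BMAL1, was read by 1 probe set, which did not meet the filter on detection calls. It read 627.1, 576.3, 882.6 and 283.7 in apoE-/- and 153.4, 196.7, 276.1, 196.3 and 199.7 in wild-type. The calls were present, marginal, present and absent in apoE-/- replicates 1 to 4, and absent on all 5 wild-type arrays. The groups did not overlap, although replicate 4 exceeded wild-type replicate 3 by little. The log2 means were 9.09 ± 0.68 (SD, n = 4) and 7.68 ± 0.30 (SD, n = 5). No fold is given, because no wild-type array and only 2 of the 4 apoE-/- arrays called Ciart present.

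Promoters of Tef and Ciart are shown because these 2 genes read high on the same 3 arrays as Dbp and hold the E-box through which CLOCK and BMAL1 act. The windows, from RefSeq on GRCm38.p6, run from 250 bases before to 50 after the gene's start, 5′ to 3′ on the gene's strand, with each E-box (CACGTG, the same on both strands) in capitals. Ciart is at chr3:95882179-95882478 on the minus strand, and the windows of Tef are at chr15:81802423-81802722 and chr15:81811164-81811463 on the plus strand.
Ciart: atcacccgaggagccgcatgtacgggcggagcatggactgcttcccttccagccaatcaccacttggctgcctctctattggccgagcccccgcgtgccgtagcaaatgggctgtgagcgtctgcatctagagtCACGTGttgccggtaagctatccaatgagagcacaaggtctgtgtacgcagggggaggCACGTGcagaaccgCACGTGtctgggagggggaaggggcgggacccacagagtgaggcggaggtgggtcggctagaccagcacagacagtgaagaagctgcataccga
Tef start 1: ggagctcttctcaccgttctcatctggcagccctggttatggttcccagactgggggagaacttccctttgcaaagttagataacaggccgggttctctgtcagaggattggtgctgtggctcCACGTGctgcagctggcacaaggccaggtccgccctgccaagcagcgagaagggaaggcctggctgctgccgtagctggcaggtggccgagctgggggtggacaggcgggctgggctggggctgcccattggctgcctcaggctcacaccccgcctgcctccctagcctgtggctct
Tef start 2: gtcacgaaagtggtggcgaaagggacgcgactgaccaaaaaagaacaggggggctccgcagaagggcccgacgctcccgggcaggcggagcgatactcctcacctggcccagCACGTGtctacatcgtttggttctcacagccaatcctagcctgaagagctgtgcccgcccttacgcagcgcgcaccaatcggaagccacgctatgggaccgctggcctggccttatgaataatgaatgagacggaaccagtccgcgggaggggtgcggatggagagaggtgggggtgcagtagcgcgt
Ciart holds 3 E-boxes, with first bases 116, 58 and 44 bases before the start, and each Tef window holds 1, at 127 and 138 bases. Of 32851 promoter windows of that length, 7.15% hold an E-box. Windows were found for 8 of the 9 genes, all but Bhlhe40, and 4 of these 10 windows held one, the fourth being that of Bhlhe41 at 153 bases before the start. No E-box stands in the window of Dbp, which says only that these letters are not in it. The D-box, searched as TTANGTAA on both strands, was in 1 of the 10 windows, a start of Rorb, and in 2.32% of all. Matching letters are a description of the window and not a site shown to be bound.

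**Figure D2:**
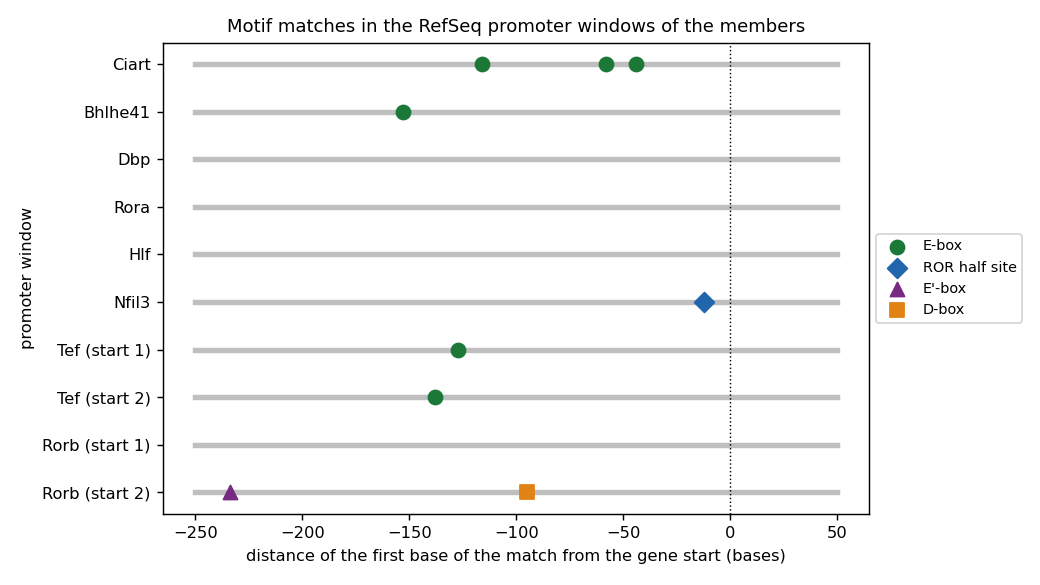
Motif matches in the 10 RefSeq promoter windows of 8 member genes, plotted by the distance in bases of the first base of the match from the gene start, with window 1 or 2 where a gene has 2 starts. Ciart carries 3 E-boxes, and both Tef windows and that of Bhlhe41 carry 1 each.

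Nfil3, the repressor of D-box genes, read in the opposite direction to Dbp. Its probe set read 106.6, 122.1, 30.1 and 183.3 in apoE-/- and 202.4, 136.6, 376.7, 185.4 and 236.8 in wild-type. It was called absent in apoE-/- replicates 1 to 3 and present in replicate 4 and on all 5 wild-type arrays. The 3 absent values lay below every wild-type array, and replicate 4 lay within the wild-type range. On the log2 scale the means were 6.49 ± 1.16 (SD, n = 4) and 7.77 ± 0.53 (SD, n = 5). The log2 difference of these signals was -1.28 ± 0.43 (SE), and -0.73 without apoE-/- replicate 3, the dimmest array. No fold is given, since 3 of the 4 apoE-/- arrays did not detect Nfil3, which met the filter through the wild-type group. Without replicate 4 the difference was -1.63, with all 3 remaining apoE-/- signals undetected.

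The promoter window of Nfil3 is shown because RORα and the REV-ERB proteins compete for a motif of which TAGGTCA is a core, and Nfil3 is a known REV-ERB target. The window is at chr13:52980990-52981289 on the minus strand of GRCm38.p6, from RefSeq, with the match in capitals.
Nfil3: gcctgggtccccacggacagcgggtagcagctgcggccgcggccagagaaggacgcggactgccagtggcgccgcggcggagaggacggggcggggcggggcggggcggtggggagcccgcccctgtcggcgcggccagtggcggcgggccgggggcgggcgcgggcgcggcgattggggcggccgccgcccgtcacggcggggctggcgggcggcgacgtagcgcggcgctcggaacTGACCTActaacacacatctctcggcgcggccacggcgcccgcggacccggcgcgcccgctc
The match reads as the reverse complement and starts 12 bases before the gene start. TAGGTCA, on either strand, was found in 1 of the 10 member windows and in 2.61% of all windows. TGGGTCA, the other form searched, was in 0 of the 10 and in 3.98% of all windows. CACGTT, a variant of the E-box, was in 1 of the 10, the second start of Rorb, and in 4.68% of all. The matches found did not overlap each other.

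The DEC factors are E-box repressors. Bhlhe40 was called present on all 9 arrays, with 1000.8, 1432.2, 1514.6 and 1109.6 in apoE-/- and 814.3, 1169.7, 991.7, 1004.3 and 929.1 in wild-type. Replicates 2 and 3 of apoE-/- were above every wild-type array and replicates 1 and 4 were not, so its array order differed from that of Dbp. The log2 difference was 0.36 ± 0.14 (SE), or 1.29-fold. Bhlhe41 was called absent on all 9 arrays by both its probe sets, so no fold is given. Probe set Bhlhe41 A read 160.4, 214.8, 192.1 and 166.3 in apoE-/- and 112.3, 118, 85, 153.4 and 134.8 in wild-type, without overlap. Probe set Bhlhe41 B read 6.7 to 22.8 in apoE-/- and 11.7 to 27.5 in wild-type, with overlap.

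Rora, the nuclear receptor that activates Arntl, was covered by 9 probe sets, of which 6 were tested, and they did not move one way. The log2 differences of the 6 ran from -0.32 to 0.22. Probe set Rora B read 1701.5, 2021.8, 1759.5 and 1604.3 in apoE-/- and 1496.8, 2142.6, 2307.9, 1591.8 and 1723 in wild-type, with all apoE-/- arrays inside the wild-type range (-0.04 ± 0.13, SE). Probe set Rora E read 502.3, 706.3, 587.1 and 597.6 against 720.4, 805.2, 783.5, 708.3 and 668. It read lower in apoE-/- with replicates 1, 3 and 4 below all wild-type arrays (-0.32 ± 0.12, SE).

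Probe set Rora G pointed the other way, at 834.4, 847.8, 805.5 and 628.2 against 687.4, 690.8, 683.7, 617.4 and 628.5. Replicates 1 to 3 were above all wild-type arrays (0.22 ± 0.12, SE, and 0.32 ± 0.11 without replicate 4). The other tested ones, Rora A, Rora D and Rora H, differed by 0.17 ± 0.14, 0.08 ± 0.15 and 0.10 ± 0.20 (SE). The 3 untested ones lay between 26.2 and 228.5. Only 1 of their calls was present, that of Rora C on wild-type replicate 4.

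Rorb, the receptor better known from neurons and retina, was at the edge of detection. Its 3 probe sets read 14.4 to 141.8 over all arrays, with 2 present and 1 marginal among 27 calls. Probe set Rorb B held all of these, at 62.2, 105.4, 96.6 and 65.3 in apoE-/- and 64.6, 58.9, 43.4, 66.6 and 55.7 in wild-type. No fold is given for Rorb, whose detection was 1 array of each group.

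**Figure D3:**
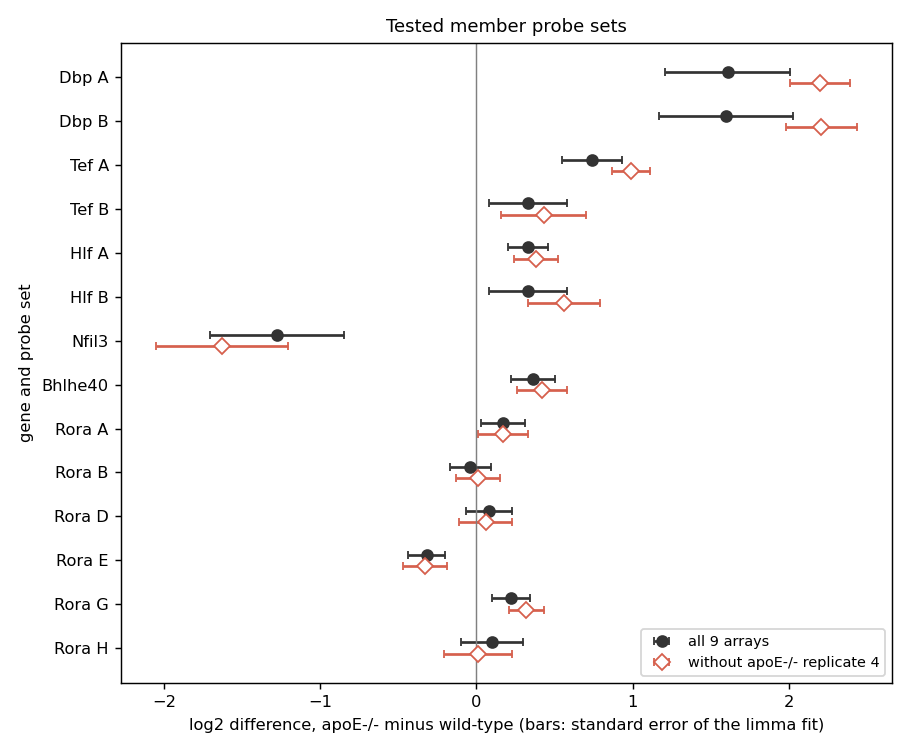
Log2 difference, apoE-/- minus wild-type, of the 14 tested member probe sets with the standard error of the limma fit, over all 9 arrays (filled circles) and without apoE-/- replicate 4 (open diamonds). Dbp moves from about 1.6 to 2.2, Tef A from 0.74 to 0.99 and Nfil3 from -1.28 to -1.63, while the 6 Rora probe sets lie on both sides of 0.

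Replicates 1 to 3 lay above every wild-type array, with replicate 4 inside the wild-type range, for both probe sets of Dbp, Tef A, Hlf B and Rora G, and below with replicate 4 inside for Nfil3. At least 3 of the 4 apoE-/- arrays were above every wild-type array for 6 of the 14 tested probe sets, those 5 and Hlf A, for which all 4 were above, where 9.44% of all tested probe sets were. For 2 of the 14 at least 3 were below every wild-type array, where 10.7% of all were: Nfil3, and Rora E, whose replicate inside the range was replicate 2. This way of counting was chosen after the values were seen. In detection, apoE-/- replicate 4 did not stand outside its group, with 46.4% of probe sets called present against 44.0% to 47.2% in the other 3. Its summed macrophage marker signal was 10053, against 13110 to 15509 in apoE-/- replicates 1 to 3 and 7921 to 11887 in wild-type. The macrophage markers thus also read lowest in replicate 4 among the apoE-/- arrays, and their part in the result was not tested. Of 7 macrophage markers 6 were tested, and all 6 read higher in apoE-/-, with a median log2 difference of 0.58. With limma 2 of the 6 passed upward and 0 downward, where 0.67% and 1.92% of all tested probe sets did. Each of the 7 was called present on at least 1 array.

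In the core clock loop, apoE-/- replicates 1 to 3 all lay outside the wild-type range for 6 of 9 tested genes, below it for Arntl and Npas2 and above it for Per2, Per3, Cry2 and Nr1d2, but not for Clock, Per1 or Cry1. This count was also made after the values were seen. Of all tested probe sets, 9.44% had at least 3 of the 4 apoE-/- arrays above every wild-type array and 10.7% below. Of the 9 genes, each read by its brightest tested probe set, 0 passed with limma over all 9 arrays, where 2.59% of all tested probe sets did. An unadjusted p under 0.05 was found for 7, where 16.5% of all had one, and the median log2 difference was 0.42. Values with array weights or a replicate block were read for Clock, Arntl, Per1, Per2, Per3 and Nr1d2, and not for Npas2, Cry1 or Cry2. Of those read, Arntl, Per2, Per3 and Nr1d2 passed with array weights (limma adjusted p 0.0116 to 0.0415). With the replicate numbers as a block, a fit without wild-type replicate 5, Arntl and Nr1d2 passed (limma adjusted p 0.0279 and 0.0487). The replicate numbers were not taken to pair samples. The list was drawn up with earlier results of these data known. Arntl, which encodes BMAL1, read 145.5, 175, 193.9 and 862.8 in apoE-/- and 878.7, 539.8, 572.8, 915.5 and 664.7 in wild-type. It was called absent in apoE-/- replicates 1 to 3, all below the wild-type range, and present on the other 6 arrays (-1.49 ± 0.40, SE, limma adjusted p = 0.069). Per3, a repressor of the loop, read 791.6, 766.3, 838.2 and 279.5 against 359.8, 427.1, 230.9, 280.3 and 357.4 by its brightest probe set (0.91 ± 0.28, SE, limma adjusted p = 0.112). Its other tested probe sets read 0.25, 0.20 and 0.19 without passing. Only by the last of these were apoE-/- replicates 1 to 3 all above the wild-type range. Arntl was thus low, and Per3 high by its brightest probe set, on the 3 arrays where Dbp, Tef and Ciart were high.

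Per2 read 0.76 and Nr1d2 0.70 by their brightest probe sets, with limma adjusted p values of 0.12 and 0.088. Without apoE-/- replicate 4, 5 of the 9 passed: Per2, Per3 and Nr1d2 higher, and Arntl and Npas2, the neuronal relative of Clock, lower, where 1.12% of all tested probe sets passed higher and 2.46% lower. Those values were 1.07, 1.29 and 0.93 for the first 3 and -2.09 and -1.13 for the last 2. Without wild-type replicate 2, that probe set of Nr1d2 also passed (limma adjusted p = 0.0286). By any probe set over all 9 arrays, 1 gene rose, Nr1d2 by its other, dim probe set (1.0 ± 0.23, SE, limma adjusted p = 0.0355). This dim probe set read 311, 360.5, 333.4 and 195.1 in apoE-/- and 112.4 to 198 in wild-type. It was called present in apoE-/- replicates 1 to 3, marginal in replicate 4, and present on only 2 of the 5 wild-type arrays. It thus met the filter only with apoE-/- arrays. The 1 gene that fell was Clock, by a dim probe set (-0.75 ± 0.17, SE, limma adjusted p = 0.0334). For Nr1d2 the call went when apoE-/- replicate 1, 2 or 3 was left out, and also for wild-type replicate 1, 3 or 4 (limma adjusted p 0.068 to 0.124). For Clock it went with apoE-/- replicate 2 or 3 left out, and with any of wild-type replicates 1 to 4 (limma adjusted p 0.0508 to 0.116), and Clock's 3 other probe sets read -0.19 to -0.36 without passing. Both calls were also lost with no detection filter (limma adjusted p 0.101 for Nr1d2 and 0.0997 for Clock) and with the neuron covariate (0.113 and 0.101), and that of Nr1d2 without the mean-variance trend (0.0712).

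**Figure D4:**
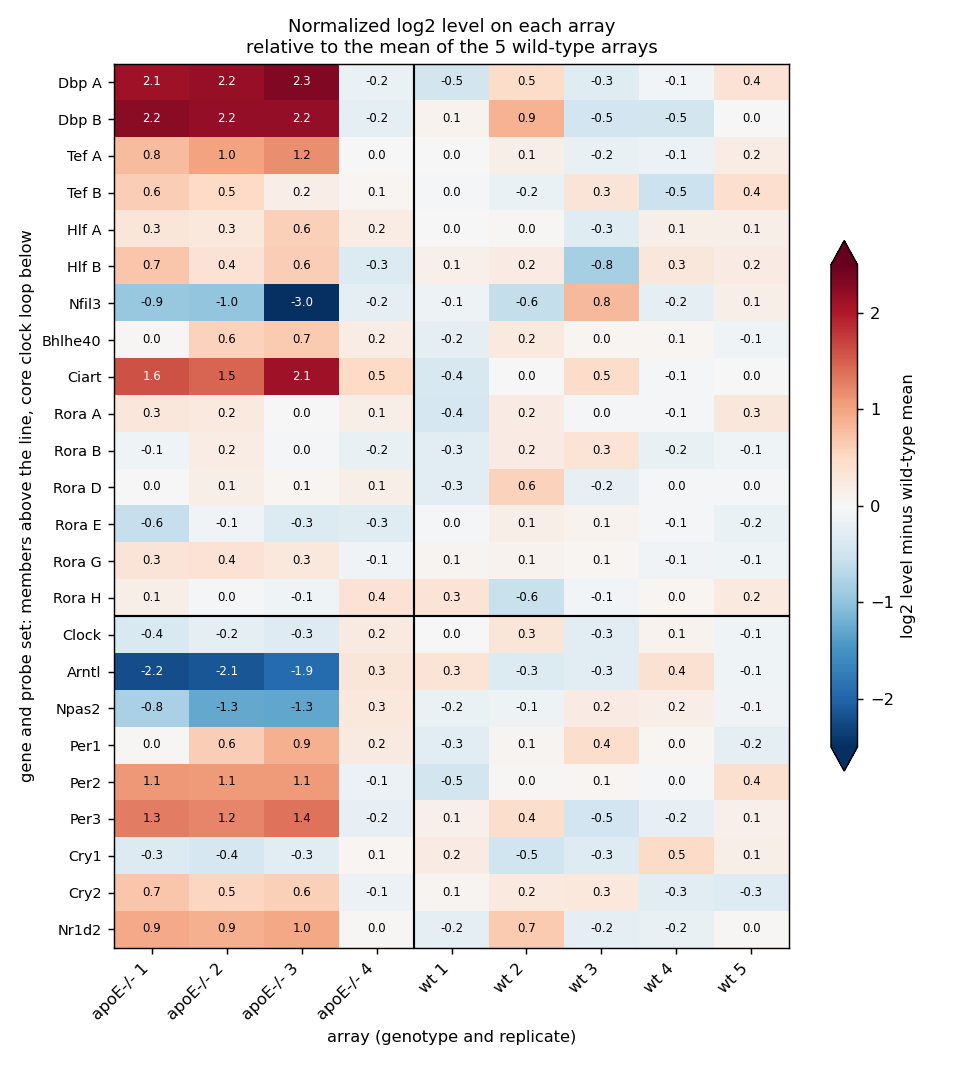
Normalized log2 level on each array minus the mean of the 5 wild-type arrays (wt), with member probe sets above the horizontal line and core clock genes below it, and apoE-/- arrays left of the vertical line. On apoE-/- replicates 1 to 3 Dbp, Tef A, Ciart, Per2, Per3 and Nr1d2 are high and Nfil3, Arntl and Npas2 low, while replicate 4 lies near 0 for most of them.

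Genes that cycle in many tissues or are driven by PAR bZIP factors were read as a further list. Of 11 tested, 2 rose and 0 fell by their brightest probe set, where 0.67% and 1.92% of all tested probe sets did, with a median log2 difference of 0.21. Tspan4, a tetraspanin that cycles in many organs, read 2517, 2400.2, 2678.9 and 1099.6 in apoE-/- and 1124.6, 1140.7, 1195.3, 1033.9 and 1212.5 in wild-type (0.86 ± 0.21, SE, limma adjusted p = 0.042). Its apoE-/- replicates 1 to 3 were above all wild-type arrays and replicate 4 among them. The call of Tspan4 held without apoE-/- replicate 4 and was lost without any other single array (limma adjusted p 0.0632 to 0.155). It was also lost with no detection filter (0.101), without the mean-variance trend (0.116), with a robust prior (0.0575) and with the neuron covariate (0.108), as limma adjusted p values.

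Tsc22d3, a glucocorticoid-induced leucine zipper gene, rose by 0.58 ± 0.12 (SE, limma adjusted p = 0.0157) with all 4 apoE-/- arrays above wild-type, at 1011.3 to 1146.3 against 639.4 to 858. Its replicate 4 was its highest array, unlike Dbp, and its other 3 probe sets read 0.03 to 0.39 without passing. Without apoE-/- replicate 3 its limma adjusted p was 0.0593. Noct, a clock-controlled enzyme first known as a deadenylase, read -0.31 and Nampt, the rate-limiting enzyme of NAD salvage, 0.26, neither passing. Noct passed at -0.42 without apoE-/- replicate 4 (limma adjusted p = 0.0464).

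Among 7 tested clock kinases and ubiquitin ligases, 0 passed by the brightest probe set with limma and 2 had an unadjusted p under 0.05, where 2.59% and 16.5% of all tested probe sets did. Csnk2a1, a subunit of casein kinase 2, fell by a dimmer probe set (-1.07 ± 0.20, SE, limma adjusted p = 0.012), while its brightest read -0.42 and passed without apoE-/- replicate 4 (limma adjusted p = 0.038) and with array weights (limma adjusted p = 0.0292). Its remaining tested probe set read the other way, at 0.34 ± 0.16 (SE), without passing (limma adjusted p = 0.315). Csnk1e, which phosphorylates PER, read 0.44 with groups apart, Usp2, a deubiquitinase, 0.19, and Csnk1a1 -0.07, none passing in the main fit. Csnk1e passed with array weights (limma adjusted p = 0.0402) and without the mean-variance trend (limma adjusted p = 0.0488). Its dimmer probe set read -0.16, with overlapping groups. The 6 tested relatives of the members, C/EBP and HES or HEY factors, had 0 genes passing with limma and 1 at an unadjusted p under 0.05, with a median of 0.07. Hey2 read -0.42, Cebpa 0.34, Cebpb 0.25 and Hes1 0.17.

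Genes most like Dbp across arrays were ranked by how their deviations from the group mean followed those of Dbp B over the 9 arrays. Among 11089 genes read by their brightest tested probe set, the closest outside the members were Gzmm, Per3, Sun2, Eif5 and Ier3, with Pearson correlations of 0.98, 0.98, 0.97, 0.94 and 0.93. The measure is a description without a test, since the 5 were picked as the highest, and apoE-/- replicate 4 carries much of it. Without that array the values were 0.92, 0.91, 0.91, 0.71 and 0.61. Among members, the bright probe set of Tef followed Dbp at 0.92 (0.58 without replicate 4). Hlf stood at 0.40, Bhlhe40 at 0.38, Rora at 0.30 and Nfil3 at -0.62. Without replicate 4 these values were 0.20, 0.21, 0.11 and -0.38. Among core clock genes, Arntl and Npas2 both stood at -0.90, and at -0.40 and -0.47 without replicate 4. Nr1d2 stood at 0.93 and 0.90 without it, Cry2 at 0.77 and 0.35, Per2 at 0.76 and -0.06, and Per1 at 0.15 and -0.23. Cry1 stood at -0.58 and -0.54, and Clock turned from -0.42 to 0.72.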

How the data were processed

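Per the submitters' processing notes the arrays were read with GCOS 1.4, and the authors deposited 1 signal intensity on a linear scale and 1 detection call per probe set and array. How background was handled and probes were summarised is not given in the sources used here. Each array's mean, leaving out the top and bottom 2% of its probe sets, was 500.0, so the deposited intensities had been scaled. All 405909 values equal those of the deposited series matrix. The detection p columns were not used. Array medians ranged over 0.214 on the log2 scale.

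Intensities were taken to log2 and quantile normalized. The 21478 probe sets other than the 64 controls called present on at least 4 of 9 arrays went into the genotype comparison, made in R 4.3.3 with limma 3.58.1 (a trended variance prior and no term but genotype, two-sided, with p-values adjusted by Benjamini-Hochberg over the 21478 and called at 0.05). The step was tested on simulated arrays. Gene symbols come from the array platform's annotation, which gives 34958 probe sets 1 symbol, and probe sets were not averaged. Promoter windows are RefSeq's. The members, lists and rule for named genes (all members, then of each list the genes passing and the 4 with the smallest p by brightest probe set, and the 5 genes most like Dbp) were chosen with earlier results of these data known. Alternatives were 2 scalings, 3 detection filters, an offset of 50, 2 variance priors, array weights, a replicate block, a neuron marker covariate and each array left out. The replicate block held only replicate numbers found in both groups and so left out wild-type replicate 5.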

Additional observations from a re-analysis of the deposited data

Results flagged for a closer look

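In each group of 4 or 5 arrays, the gap between the most extreme array and the next was divided by the group's range and set against Dixon's critical value (0.829 for 4 arrays and 0.71 for 5). Of 102 such groups, from 51 probe sets of the members and the other named genes, 15 exceeded it. Chance gives about 1 in 20 only for independent groups not picked by their values. These probe sets were chosen with results of these data known and are not independent of each other, so the count is no test. In 9 of the 15 the array apart was apoE-/- replicate 4.

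Among the members, apoE-/- replicate 4 was far below the other 3 arrays of its group in both probe sets, with a ratio of 0.92 for Dbp A and 0.977 for Dbp B. It was also lowest for the undetected Rora I (0.838). Wild-type replicate 3 was lowest for Hlf B (0.851). The remaining member probe sets were undetected ones: Bhlhe41 B with apoE-/- replicate 1 highest (0.856), Rora F with wild-type replicate 4 lowest (0.736) and Rorb A with wild-type replicate 5 lowest (0.723).

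Outside the members, apoE-/- replicate 4 was lowest for Per2 (0.987), Per3 (0.919), Nr1d2 (0.919), Tspan4 (0.892) and the metallothionein Mt2 (0.833), and highest for Arntl (0.885). Wild-type replicate 3 was lowest for Cebpa (0.752) and wild-type replicate 4 highest for the co-chaperone Dnajb1 (0.814).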

How the results depend on the processing

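Of 277 recomputed differences of the 14 tested member probe sets, 251 kept direction and side of the threshold, 13 lost it, 8 gained it and 5 changed sign. All 13 losses were of Dbp A, the only member called (limma adjusted p = 0.0484), which kept its call in just 7 of 20 alternatives. Dbp B was not called in the main fit (limma adjusted p = 0.0671). The 5 changes of sign were all in Rora and all small. Rora B went from -0.04 to 0.01 with array weights and ranged from -0.11 to 0.05 with 1 array left out, and Rora H ranged from -0.04 to 0.18. The number of member probe sets higher in apoE-/- (1) was 2 with an offset of 50, 0 without the mean-variance trend, with a robust prior or with the neuron covariate, 3 with array weights or the replicate block, and 0 to 3 with 1 array left out, where the number lower (0) was 0 to 1. The 1 called was Ciart in place of Dbp with no detection filter or with present calls on at least 2 arrays. Over all tested probe sets, the 144 higher and 412 lower were 81 and 248 with no detection filter, 57 and 252 without the trend, 372 and 706 with array weights, 74 and 220 with the neuron covariate, and 56 to 240 and 207 to 529 with 1 array left out. Deviations of same-numbered samples correlated at 0.16, -0.015, 0.031 and 0.008, so the replicate numbers were not taken to pair samples, and the replicate block gave 180 and 421. The causes were not tested. Signals near the detection limit (Nfil3 in apoE-/-, Bhlhe41, Rorb and Ciart in wild-type) limit what can be said of those genes.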

Other observations

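Glucocorticoid response genes were measured because several are also clock-controlled. Of 10 tested, 1 rose by its brightest probe set, Tsc22d3, and 0 fell, where 0.67% and 1.92% of all tested probe sets did, with a median log2 difference of 0.19. The co-chaperone Fkbp5 read 0.59 (limma adjusted p = 0.0954) and Mt2 0.59 (limma adjusted p = 0.0765), and Per1, also a clock repressor, 0.44 (limma adjusted p = 0.255). Without apoE-/- replicate 4 Fkbp5 and Mt2 both passed, at 0.70 and 0.77 (limma adjusted p = 0.0492 and 0.00711). With Tsc22d3 and Mt1 that made 4 of the 10 higher and 0 lower, where 1.12% and 2.46% of all tested probe sets passed in that fit. Fkbp5 read 646.4, 499.2, 492.4 and 393 in apoE-/- and 250.8 to 424.5 in wild-type.

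Genes of the temperature and heat shock response read lower for 7 of 8 tested, with a median of -0.20. With limma 1 rose, 0 fell and 4 had an unadjusted p under 0.05, where 0.67%, 1.92% and 16.5% of all tested probe sets did. The one that rose was Cirbp, a cold-inducible RNA-binding protein gene, at 1720.3, 1675.5, 2091.3 and 1374.1 in apoE-/- against 808.4, 474.1, 447.9, 635 and 1156.9 in wild-type, without overlap (1.35 ± 0.23, SE, limma adjusted p = 0.00676). For Cirbp, replicate 4 was thus the lowest of its group but above every wild-type array. The chaperones Hsph1 (-0.42), Dnajb1 (-0.30) and Hspa8 (-0.20) did not pass. Without apoE-/- replicate 4, 3 of the 8 fell with limma, Hspa1b, Dnajb1 and Hspa8, and 1 rose, Cirbp. In that fit 2.46% of all tested probe sets passed lower and 1.12% higher. Hspa1b, an inducible HSP70 gene singled out after its values were seen, read 293.2, 300, 369.3 and 2399.3 in apoE-/- replicates 1 to 4 by its brightest probe set and 450.9 to 1204.9 in wild-type, so replicate 4 was its highest array. Its part in the values of the clock genes was not tested.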
